A study of Mus musculus with 3 samples.

Results

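Junctions of the mouse immunoglobulin heavy chain locus (IgH) that carry extra bases between the joined ends numbered 341 of 2625 IgH junctions in 3 libraries of activated B cells, among 2995 junctions at any site. They were chosen by a measured value: in the sequencing read, the aligned part of the bait ended at least 1 base before the aligned part of the prey began, so that the bases between belonged to neither. DNA-PKcs-/- replicate 5 gave 95 such junctions, DNA-PKcs PQR/PQR replicate 1 gave 208 and PQR/PQR replicate 2 gave 38. Single reads were listed for 95, 145 and 38 of them, because the S-mu list of PQR/PQR replicate 1 and a few other lines were not used here, and the counts cover the rest. A separate sheet, whose insertions had at least 30 bases, held another 2, 2 and 0 IgH junctions.

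The libraries were made by high-throughput genome-wide translocation sequencing (HTGTS), which reads from known sequence at the 5′ end of the S-mu switch region (the bait) into the sequence joined to it (the prey). All cells were CD43- splenic B cells of strain 129 mice with preassembled immunoglobulin loci, grown for 4 days with 1 ng/mL anti-CD40 and 20 ng/mL IL-4. The groups were cells without DNA-PKcs (1 library) and cells with both copies of the kinase changed at its PQR cluster of phosphorylation sites (2 libraries). The authors' pool of each genotype, which contains these libraries, held 1835 insertion junctions for DNA-PKcs-/- and 523 for PQR/PQR. Wild-type cells are not analysed here, genomic junctions offer no marker to check the cell type, and separate mice are not named for the PQR/PQR libraries, whose spread may be technical.

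In class switch recombination, breaks that start from activation-induced deaminase (AID) in S-mu are joined to breaks in a downstream switch region, here S-gamma1 for IgG1 or S-epsilon for IgE. Classical non-homologous end joining, in which DNA-PKcs binds Ku at the ends and activates the Artemis nuclease, can join ends directly, trim them, or add bases before ligation. Inserted bases can come from polymerases that add bases with or without a template, or from a short fragment captured from elsewhere.

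The reads below show what an insertion is. Each is written 5′ to 3′ as sequenced, with the end of the aligned bait first and the start of the aligned prey last, both in lower case, and the inserted bases in capitals. All positions are on chromosome 12 in mm9. A direct join and an insertion of 1 base, the nearest neighbours across the threshold, are shown first from S-epsilon of PQR/PQR replicate 1, with preys at chr12:114514213 and chr12:114514413.
direct join: cgcaaatggtaagccggtctgggctgaacc
1 base: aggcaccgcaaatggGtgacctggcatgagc

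The 3 longest listed insertions of each library show the other end of the range. In DNA-PKcs-/- replicate 5 they joined the bait to S-gamma1 at chr12:114568314 and to other IgH sites at chr12:114517953 and chr12:114532793, the last in inverted orientation.
S-gamma1, 25 bases: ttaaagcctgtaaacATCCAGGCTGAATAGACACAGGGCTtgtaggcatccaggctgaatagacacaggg
other IgH, 24 bases: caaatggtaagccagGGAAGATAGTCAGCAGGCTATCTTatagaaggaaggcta
other IgH inverted, 24 bases: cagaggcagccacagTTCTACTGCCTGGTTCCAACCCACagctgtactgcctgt

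In PQR/PQR replicate 1 the longest joined S-epsilon at chr12:114514067, S-gamma1 at chr12:114567366 and S-epsilon at chr12:114515039, all 3 deletional.
S-epsilon, 28 bases: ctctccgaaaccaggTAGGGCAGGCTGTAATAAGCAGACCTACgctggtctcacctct
S-gamma1, 25 bases: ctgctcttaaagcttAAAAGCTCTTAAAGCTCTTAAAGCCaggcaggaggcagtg
S-epsilon, 23 bases: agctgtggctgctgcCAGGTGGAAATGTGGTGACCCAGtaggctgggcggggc

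In PQR/PQR replicate 2 they joined S-gamma1 at chr12:114573383, S-gamma1 inverted at chr12:114578217 and S-mu inverted at chr12:114665463.
S-gamma1, 16 bases: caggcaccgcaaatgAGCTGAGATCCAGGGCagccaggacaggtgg
S-gamma1 inverted, 14 bases: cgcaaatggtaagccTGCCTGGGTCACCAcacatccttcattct
S-mu inverted, 14 bases: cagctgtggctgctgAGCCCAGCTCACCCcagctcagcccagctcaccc

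Several of these insertions repeat bases of their own read. The first 23 of the 25 bases in the S-gamma1 junction of DNA-PKcs-/- replicate 5 recur in its aligned prey, 7 bases past the prey's start, and the recurrence is included in the printed read. All 14 bases of the inverted S-mu junction of PQR/PQR replicate 2 recur 6 bases into its prey in the same way. The 25-base S-gamma1 insertion of PQR/PQR replicate 1 shares the 12-base run GCTCTTAAAGCT with its bait, 1 base before the bait's end. Among listed insertions of 10 bases or more, a run of at least 8 bases in common with the read's own bait or prey, on either strand, was found in 7 of 19 in DNA-PKcs-/- replicate 5, in 5 of 16 in PQR/PQR replicate 1 and in 2 of 3 in PQR/PQR replicate 2. In the libraries the prey in the same direction held the run in 5, 4 and 2 insertions, and the bait in the same direction in 0, 1 and 0. In the DNA-PKcs-/- pool outside replicate 5 a run was found in 44 of 165, of which 20 had one in the prey in the same direction, 10 in the bait in the same direction, 12 in the bait and 8 in the prey on the opposite strand. These 165 leave out S-gamma1, for which no list of that pool was used here. Switch regions are themselves arrays of short repeats, and how often such a run occurs without copying was not tested.

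Long insertions also matched aligned IgH sequence elsewhere. Of the insertions of 10 bases or more, counting the sheet of large insertions, 6 of 21 in DNA-PKcs-/- replicate 5 (28.6%, 95% Wilson interval 13.8 to 49.96) matched a stretch of another read's aligned IgH sequence exactly, against 8 of 18 in PQR/PQR replicate 1 (44.4%, 24.6 to 66.3) and 2 of 3 in PQR/PQR replicate 2. The intervals overlap. In the reads of the DNA-PKcs-/- pool outside replicate 5, 89 of 245 matched (36.3%, 30.6 to 42.5), of which 67 matched S-mu alone. Of these 67, 54 had S-mu preys. No S-gamma1 list of that pool was used here, so S-gamma1 preys enter there only from the sheet of large insertions. By the counts, S-gamma1 held 1014 of the 1680 S region insertion junctions outside replicate 5, so the 245 do not stand for the whole pool. The 23-base insertion printed above, at an S-mu to S-epsilon junction of PQR/PQR replicate 1, equalled chr12:114576976-114576998 in S-gamma1, a stretch aligned in 5 reads. In a further S-epsilon junction of that library, at chr12:114514142, a 13-base insertion equalled chr12:114669160-114669172, which is S-mu sequence lying up to 56 bases past the bait's end in that read. The aligned reads covered 9416 of 9753 positions of the S-mu span, 7234 of 24159 of S-gamma1 and 5575 of 9658 of S-epsilon, so an insertion without a match may still come from IgH sequence. In turn, a short exact match in repeated switch sequence can arise without copying, and how often was not tested. A 10-base insertion of DNA-PKcs-/- replicate 5 matched S-mu, S-gamma1, S-epsilon and other IgH sequence alike.

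Insertions were shorter in both PQR/PQR libraries than in DNA-PKcs-/- replicate 5, which is given as a description because length chose the members. Single bases made up 21.1% of the insertions of DNA-PKcs-/- replicate 5 (20 of 95, 95% interval 14.1 to 30.3), whereas PQR/PQR replicate 1 had 46.2% (96 of 208, 39.5 to 52.9) and replicate 2 had 44.7% (17 of 38, 30.1 to 60.3). The reads outside these libraries lay on the same sides, with 23.2% in the DNA-PKcs-/- pool (403 of 1740, 21.2 to 25.2) and 36.5% in the PQR/PQR pool (101 of 277, 31.0 to 42.3). Insertions of 5 to 10 bases ran the other way. They made up 26.3% in DNA-PKcs-/- replicate 5, against 11.1% and 18.4% in PQR/PQR replicates 1 and 2. The median listed length was 4 bases in DNA-PKcs-/- replicate 5 and 2 bases in each PQR/PQR library, and the upper quartiles were 7, 3 and 4.75 bases. These listed lengths cover unlike regions. Those of PQR/PQR replicate 1 come from 111 S-epsilon and 34 S-gamma1 junctions without S-mu, while 54 of the 95 in DNA-PKcs-/- replicate 5 lay in S-mu. By their read names, DNA-PKcs-/- replicate 5 was sequenced together with PQR/PQR replicate 1, and PQR/PQR replicate 2 in a separate run, so the first pair was compared within a run.

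**Figure D1:**
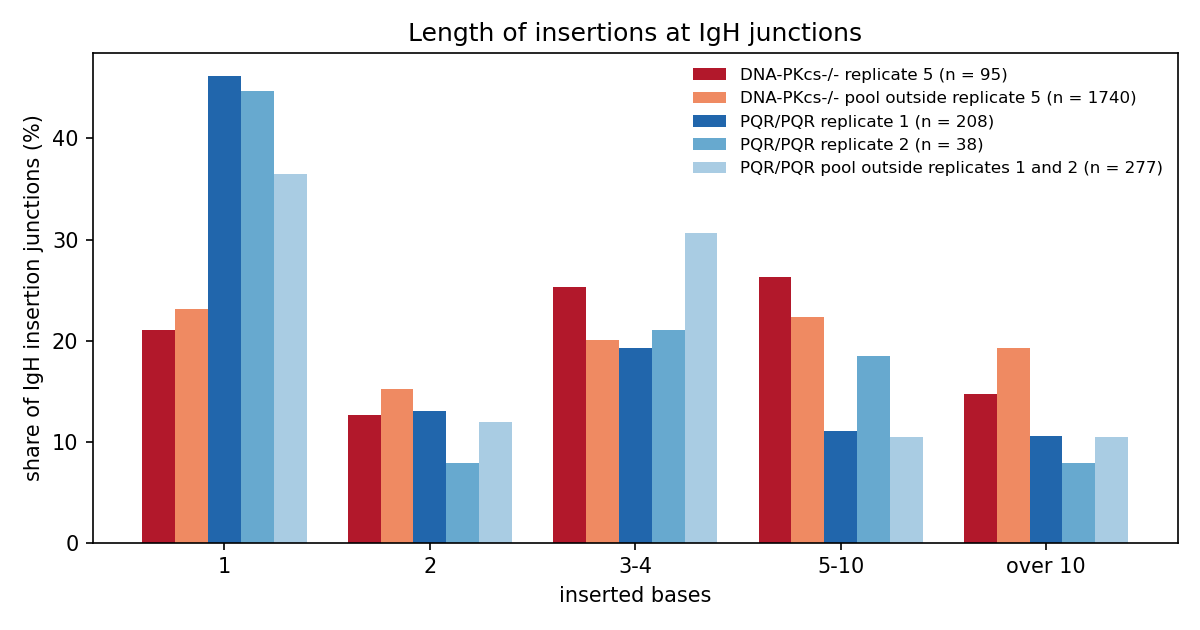
Bars give the share of IgH insertion junctions (vertical axis, percent) by number of inserted bases (horizontal axis) in the 3 libraries and in the reads of each pool outside them, with no error bars because each bar is a share of 1 library or pool. Single bases make up 46.2% and 44.7% in the PQR/PQR libraries and 21.1% in DNA-PKcs-/- replicate 5, and the 5 to 10 base class is highest in DNA-PKcs-/- replicate 5 at 26.3%.

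Just outside the threshold, the libraries held 87, 402 and 91 direct joins, against 20, 96 and 17 junctions with 1 inserted base just inside it. Over all IgH junctions, 1-base insertions made up 2.79% in DNA-PKcs-/- replicate 5 (95% interval 1.81 to 4.27). The PQR/PQR libraries had 6.16% (5.07 to 7.46) in replicate 1 and 4.87% (3.06 to 7.66) in replicate 2. Longer insertions made up 10.5% (8.43 to 12.9), 7.18% (6.00 to 8.57) and 6.02% (3.97 to 9.02) in the same order. Within total shares of 13.2%, 13.3% and 10.9%, DNA-PKcs-/- replicate 5 thus had the lowest share of single bases and the highest of longer insertions. Its intervals are clear of those of PQR/PQR replicate 1 for single bases and overlap in the other 3 cases.

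The higher share of single bases in the PQR/PQR libraries was seen in deletional junctions, those with the prey in the orientation of productive switching. Of the single bases of PQR/PQR replicate 1, 94.8% lay in deletional junctions, as did 90.9% of its insertions and 90.1% of all its IgH junctions, and in replicate 2 the shares were 88.2%, 73.7% and 79.7%. Among deletional insertion junctions, 1 base was inserted in 91 of 189 in PQR/PQR replicate 1 (48.1%, 41.1 to 55.2), 15 of 28 in replicate 2 (53.6%, 35.8 to 70.5) and 13 of 63 in DNA-PKcs-/- replicate 5 (20.6%, 12.5 to 32.2). Among inverted insertion junctions the shares were 26.3% (5 of 19) and 20% (2 of 10), against 21.9% (7 of 32). Reads of the pools outside the libraries gave 37.7% of 265 deletional and 8.33% of 12 inverted insertion junctions in PQR/PQR, and 23.7% of 1372 and 21.2% of 368 in DNA-PKcs-/-. The inverted PQR/PQR shares have wide intervals, 11.8 to 48.8 in replicate 1 and 5.67 to 51.0 in replicate 2. As a share of all deletional junctions, single bases made up 2.36% in DNA-PKcs-/- replicate 5 (1.38 to 3.99), 6.48% in PQR/PQR replicate 1 (5.30 to 7.89) and 5.40% in replicate 2 (3.30 to 8.71), and the pools outside the libraries gave 3.45% and 5.22%. Of all inverted junctions they made up 4.22% (7 of 166), 3.25% (5 of 154) and 2.82% (2 of 71) in the same libraries, highest in DNA-PKcs-/- replicate 5 and with overlapping intervals.

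By region, single bases were most frequent in the S-epsilon junctions of PQR/PQR replicate 1, at 52.2% (59 of 113). In S-mu and S-gamma1 of that library they made up 37.7% (23 of 61) and 41.2% (14 of 34). PQR/PQR replicate 2 gave 50% in S-epsilon (8 of 16), 38.5% in S-mu (5 of 13) and 50% in S-gamma1 (4 of 8). DNA-PKcs-/- replicate 5 gave 25.9% in S-mu (14 of 54), 26.3% in S-gamma1 (5 of 19) and 0 of 7 in S-epsilon (95% interval 0 to 35.4). In S-mu, S-gamma1 and S-epsilon the reads outside the libraries gave 20.9%, 24.5% and 29.4% in the DNA-PKcs-/- pool, and 28.9% of 38, 37.1% of 232 and 3 of 5 in the PQR/PQR pool. In the other IgH junctions of DNA-PKcs-/- replicate 5, outside the 3 switch regions, 1 of 15 insertions was a single base and 6 of 15 had 10 bases or more.

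The inserted bases were richer in A and T than the aligned prey where the insertion was short. Single inserted bases were A or T in 14 of 20 cases in DNA-PKcs-/- replicate 5 (70%, 95% interval 48.1 to 85.5), in 53 of 72 in PQR/PQR replicate 1 (73.6%, 62.4 to 82.4) and in 12 of 17 in replicate 2 (70.6%, 46.9 to 86.7). The preys of the same junctions held 47.5%, 47.0% and 47.0% A or T. In insertions of 2 to 9 bases the shares were 61.1%, 58.1% and 59.7%, and in those of 10 bases or more 50.8%, 45.8% and 34.1%, near the 50.6%, 44.9% and 39.1% of their preys. The intervals of the 3 libraries overlap at every length, and that of single bases in PQR/PQR replicate 2 includes its prey value. As described below, no single inserted base equalled the bait's next base or the prey's preceding base. This limits which bases can appear as inserted, so the prey is not a like reference. How much of the difference comes from this limit was not tested. The most frequent insertions of 2 or more bases were CTC (3 junctions), AA (2) and AG (2) in DNA-PKcs-/- replicate 5, AA, AAT and AG (3 each) in PQR/PQR replicate 1, and TT (2) in PQR/PQR replicate 2, where every other sequence occurred once.

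**Figure D2:**
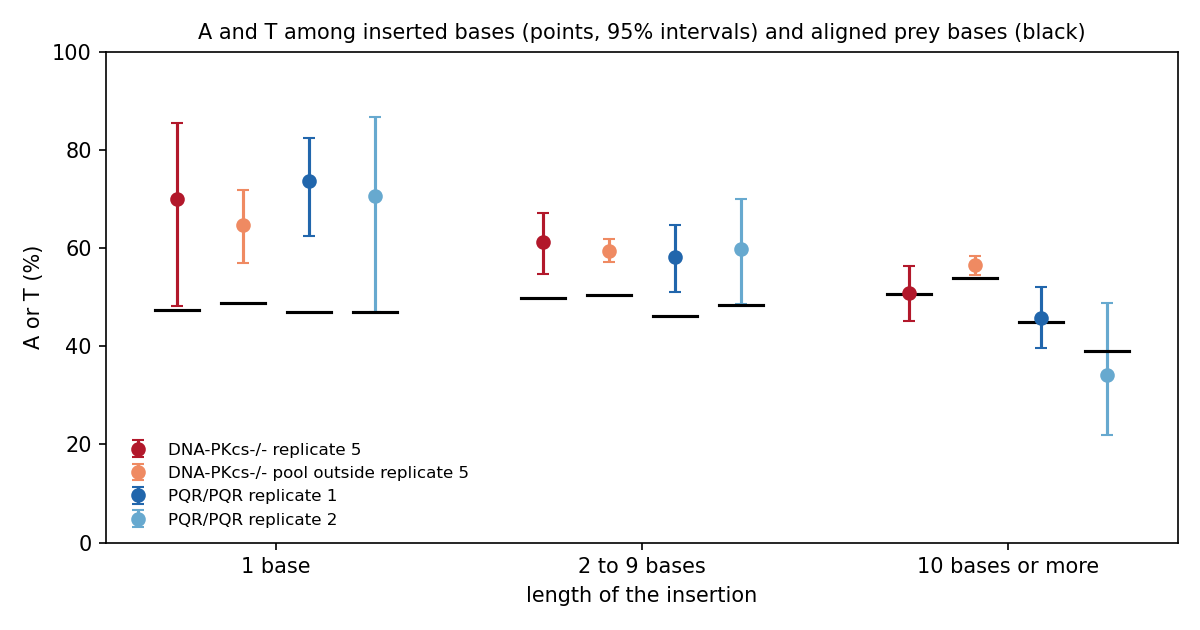
Points give the percentage of A or T among inserted bases with 95% Wilson intervals, by insertion length (horizontal axis), and black bars give the same for the aligned preys of those junctions. Single inserted bases lie at 70% to 73.6% in the 3 libraries and at 64.7% in the DNA-PKcs-/- pool outside replicate 5, above their preys, while insertions of 10 bases or more lie close to them. The values of the DNA-PKcs-/- pool leave out S-gamma1, for which no list of that pool was used here. The PQR/PQR pool outside the libraries, with 4 listed single bases of which 2 were A or T, is not drawn. Intervals count bases and treat those of 1 insertion as separate.

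The alignment sets a limit on what a short insertion is. In the 3 libraries, no inserted base next to the bait equalled the bait's own next base and none next to the prey equalled the prey's preceding base, wherever aligned reads gave that base. A 1-base insertion can therefore be read equally as a direct join with 1 substituted base. In 2-base insertions the second base equalled the bait's continuation in 11 of 19 cases in PQR/PQR replicate 1, in 2 of 12 in DNA-PKcs-/- replicate 5 and in 1 of 3 in PQR/PQR replicate 2. From 3 bases up, all bases after the first equalled the bait's continuation in 8 of 63 in DNA-PKcs-/- replicate 5, 11 of 54 and 4 of 18 in PQR/PQR replicates 1 and 2, so these too could be read as a mismatch before a junction further along. On the prey side, the first base of 2-base insertions equalled the prey's preceding sequence in 3 of 8, 11 of 18 and 2 of 2. The order is DNA-PKcs-/- replicate 5, then PQR/PQR replicates 1 and 2. From 3 bases up, all bases but the last did so in 2 of 49, 9 of 48 and 2 of 16. The share of single bases that repeated a neighbouring base of the read was 9 of 20, 40 of 72 and 5 of 17 in the same order.

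The share of junctions with insertions differed by region in DNA-PKcs-/- replicate 5 and lay close together in PQR/PQR replicates 1 and 2, as a description. In DNA-PKcs-/- replicate 5 they made up 18.8% of S-mu junctions (54 of 287, 95% interval 14.7 to 23.8), 9.00% of S-gamma1 junctions (19 of 211, 5.84 to 13.6) and 5.69% of S-epsilon junctions (7 of 123, 2.78 to 11.3). In PQR/PQR replicate 1 the shares were 13.0%, 12.5% and 14.2%, and in PQR/PQR replicate 2 they were 10.7%, 10.4% and 11.1%. Outside the libraries, reads of the DNA-PKcs-/- pool kept the order of replicate 5 with smaller differences, at 18.5%, 14.3% and 12.8%. Those of the PQR/PQR pool did not lie close together, at 19.2% (38 of 198), 13.1% (232 of 1770) and 23.8% (5 of 21). The contrast between the genotypes was therefore not kept there. Read the other way, S-mu held 67.5% of the S region insertion junctions of DNA-PKcs-/- replicate 5 (54 of 80) and 43.1% of its other S region junctions (233 of 541), a difference of 24.4 points (adjusted Fisher's exact p = 0.00156). The difference was -1.37 points in PQR/PQR replicate 1 (adjusted Fisher's exact p = 1) and -0.486 in PQR/PQR replicate 2 (adjusted Fisher's exact p = 1), so it was not called over the libraries. In the reads of the DNA-PKcs-/- pool outside replicate 5 it was 6.90 points, from 35.6% of 1680 insertion junctions and 28.7% of 9206 other junctions. In the reads of the PQR/PQR pool outside the libraries it was 4.48 points, from 13.8% of 275 and 9.33% of 1714, so those reads had the sign of DNA-PKcs-/- replicate 5 and not that of the PQR/PQR libraries.

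**Figure D3:**
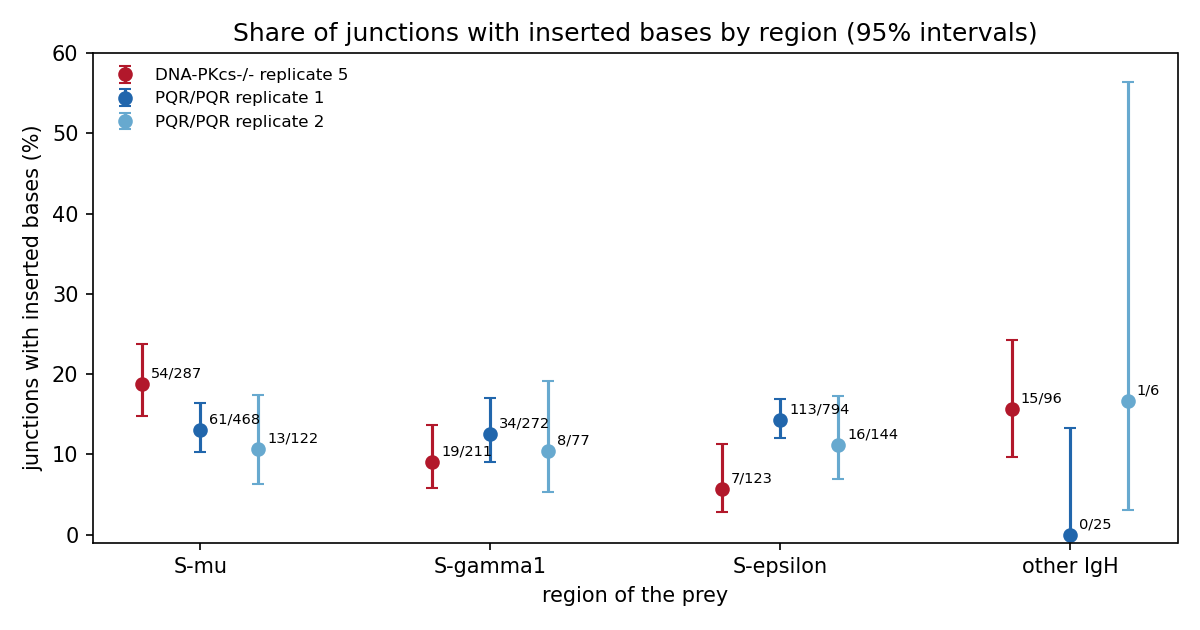
Points give the percentage of junctions with inserted bases by prey region in each library, with 95% Wilson intervals and the counts beside them. In DNA-PKcs-/- replicate 5 the share is 18.8% in S-mu and 5.69% in S-epsilon, while both PQR/PQR libraries stay between 10.4% and 14.2% in the 3 switch regions.

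Compared between libraries, the insertion junctions of DNA-PKcs-/- replicate 5 lay more often in S-mu and less often in S-epsilon than those of either PQR/PQR library. The S-mu share of 67.5% (54 of 80) stood against 61 of 208 in PQR/PQR replicate 1 (29.3%, adjusted Fisher's exact p = 2.28e-08) and 13 of 37 in replicate 2 (35.1%, adjusted Fisher's exact p = 0.00217). The S-epsilon share of 8.75% (7 of 80) stood against 54.3% (113 of 208, adjusted Fisher's exact p = 1.01e-12) and 43.2% (16 of 37, adjusted Fisher's exact p = 6.53e-05). The other S region junctions of these libraries differed in the same directions, with 43.1%, 30.7% and 35.6% in S-mu and 21.4%, 51.4% and 41.8% in S-epsilon. With the DNA-PKcs-/- pool in place of replicate 5 the S-mu difference of 35.3 points fell to 4.81 and was not called (adjusted Fisher's exact p up to 0.961), and without 1-base insertions it was 28.6 points and not called (adjusted Fisher's exact p up to 0.109). With the PQR/PQR pool in place of its libraries the S-epsilon difference of -40.0 points was -17.0, still called. That pool is not a separate check, since its 134 S-epsilon insertion junctions contain the 113 and 16 of the libraries. The pools outside the libraries had another makeup, with S-mu at 35.6% of 1680 S region insertion junctions in DNA-PKcs-/- and 13.8% of 275 in PQR/PQR. S-epsilon stood there at 4.05% (68) and 1.82% (5), both below the 8.75% of DNA-PKcs-/- replicate 5, and S-gamma1 at 60.4% and 84.4%. These tests compare libraries, since 1 library against 2 allows 3 splits and no exact p below 0.333.

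IgH junctions outside the 3 switch regions supplied 15 of the 95 insertion junctions of DNA-PKcs-/- replicate 5 (15.8%), 0 of 208 in PQR/PQR replicate 1 (95% interval 0 to 1.81) and 1 of 38 in replicate 2 (2.63%). The adjusted Fisher's exact p was 4.11e-08 against replicate 1 and 0.0561 against replicate 2, so the difference was not called, and it was called without PQR/PQR replicate 2, at 15.8 points. The reads of the DNA-PKcs-/- pool outside replicate 5 had 60 of 1740 there (3.45%), and with that whole pool in place of replicate 5 the difference of 14.5 points was 2.77. Other junctions outside the switch regions made up 13.0%, 1.85% and 1.61% of the junctions without insertions. Within each library the difference between insertion and other junctions did not pass the test. It was 2.77 points in DNA-PKcs-/- replicate 5, -1.85 in PQR/PQR replicate 1 and 1.02 in PQR/PQR replicate 2, with a lowest adjusted Fisher's exact p of 0.358. The 15 preys ran from chr12:114461737 to chr12:114671910, and the leading bin of 500 bases, chr12:114546001-114546500, held 2 of them. At junctions outside IgH, insertions made up 23.2% (29 of 125), 27.0% (33 of 122) and 55.3% (68 of 123) in the 3 libraries in the same order.

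Inverted preys, which lead to inversions and not to a switched gene, were compared between insertion and other junctions. In S-mu the inverted share was higher with insertions in all 3 libraries, by 1.26, 6.90 and 27.6 points, and none passed the test. The values were 40.7% of 54 against 39.5% of 233 in DNA-PKcs-/- replicate 5, 24.6% of 61 against 17.7% of 407 in PQR/PQR replicate 1, and 61.5% of 13 against 33.9% of 109 in PQR/PQR replicate 2, with a lowest adjusted Fisher's exact p of 0.358. In S-gamma1 of DNA-PKcs-/- replicate 5, 7 of 19 insertion junctions were inverted (36.8%) against 25 of 192 others (13.0%, adjusted Fisher's exact p = 0.111). PQR/PQR replicate 1 had 1 of 34 (2.94%) against 25 of 238 (10.5%), and PQR/PQR replicate 2 had 2 of 8 (25%) against 11 of 69 (15.9%). In the DNA-PKcs-/- pool outside replicate 5 the S-gamma1 shares were 8.78% of 1014 and 7.61% of 6099, a difference of 1.17 points beside 23.8 in replicate 5. In S-mu of that pool outside replicate 5 they were 42.8% of 598 and 35.0% of 2642, and in the PQR/PQR pool outside the libraries 0 of 38 and 10% of 160. In S-epsilon, 1 of 7, 3 of 113 and 0 of 16 insertion junctions were inverted (95% interval of the last 0 to 19.4), beside 4.31%, 4.99% and 8.59% of the others.

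Over all IgH junctions, 33.7% of insertion junctions were inverted in DNA-PKcs-/- replicate 5 (32 of 95) against 21.5% of the others (134 of 622), a difference of 12.1 points (adjusted Fisher's exact p = 0.111). PQR/PQR replicate 1 gave 9.13% (19 of 208) and 9.99%, and PQR/PQR replicate 2 gave 26.3% (10 of 38) and 19.6%. The reads of the DNA-PKcs-/- pool outside replicate 5 gave 21.1% of 1740 and 15.5% of 9518. Between libraries, the inverted share of insertion junctions of DNA-PKcs-/- replicate 5 exceeded that of PQR/PQR replicate 1 (adjusted Fisher's exact p = 1.50e-06) but the test against PQR/PQR replicate 2 missed the threshold (adjusted Fisher's exact p = 0.536). The difference was not called, and without PQR/PQR replicate 2 it would be, at 24.5 points. The PQR/PQR libraries themselves differed in this share (adjusted Fisher's exact p = 0.0275, over 5 comparisons of those libraries). They also differed in the S-mu inverted share, 24.6% against 61.5% (adjusted Fisher's exact p = 0.0444), and DNA-PKcs-/- replicate 5 at 40.7% lay between them.

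**Figure D4:**
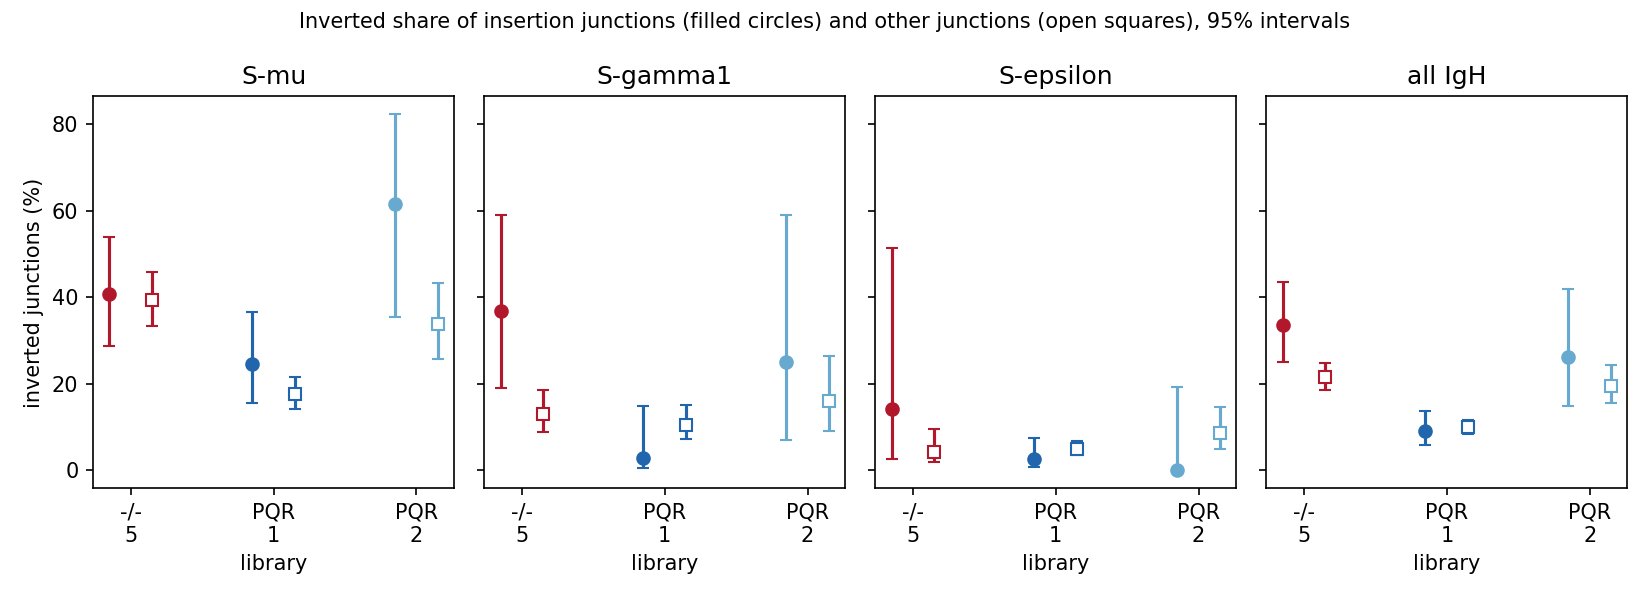
Filled circles give the inverted percentage of insertion junctions and open squares that of the other junctions, with 95% Wilson intervals, per library (horizontal axis) and region (panels). Circles lie above squares in S-mu of all 3 libraries, from 1.26 to 27.6 points, with overlapping intervals.

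Inverted S-mu junctions carried the longer insertions by median in both libraries with a list, as a description. The median listed length in S-mu was 5 bases in inverted and 3 in deletional insertion junctions of DNA-PKcs-/- replicate 5, and 4.5 and 1 in PQR/PQR replicate 2, with 22, 32, 8 and 5 junctions. The DNA-PKcs-/- pool, which contains replicate 5, gave 5 bases for 277 inverted and 3 for 370 deletional S-mu insertion junctions. Insertions of 10 bases or more made up 29.2% of the inverted and 17.3% of the deletional ones there.

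Within S-mu, a smaller share of insertion preys than of other preys lay beyond the others' median distance in both libraries with a list, without passing the test. Distances from the bait's start are absolute, so upstream preys count by their distance too. The counts beyond 2000 bases take downstream preys only. The median distance of the other S-mu preys was exceeded by 20 of 54 insertion preys in DNA-PKcs-/- replicate 5 (37.0%, against 49.4% of the others) and by 4 of 13 in PQR/PQR replicate 2 (30.8%, against 49.5%). The adjusted Fisher's exact p was 0.563 in the first library and 0.717 in the second. Reads of the DNA-PKcs-/- pool outside replicate 5 gave 244 of 593 (41.1%, 95% interval 37.3 to 45.2) against 50% of 2627 others. The median distance of insertion preys there was 906 bases, against 1221 for the others. In DNA-PKcs-/- replicate 5 the medians were 730 and 1115 bases, and in PQR/PQR replicate 2 they were 632 and 1132. The gap did not extend to the far part of S-mu in DNA-PKcs-/- replicate 5, where 20 of 54 insertion preys (37.0%) and 83 of 233 others (35.6%) lay beyond 2000 bases. Beyond 2000 bases the pool outside replicate 5 had 28.5% of insertion preys and 35.1% of others, and PQR/PQR replicate 2 had 2 of 13 and 30 of 109. With the furthest quartile in place of the median the mean difference over both libraries was -5.10 points in place of -15.5.

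The bin with most S-mu insertion preys of DNA-PKcs-/- replicate 5 was chr12:114668501-114669000, with 19 of 54 (35.2%, 8 inverted and 11 deletional) beside 33 of its 233 other S-mu preys (14.2%). The same bin held 22.8% of 593 insertion preys and 474 of 2627 others in the pool outside replicate 5, and 2 of 13 and 14 of 109 in PQR/PQR replicate 2. The bin was chosen for its count and carries no test. In PQR/PQR replicate 2 the leading bins, chr12:114668001-114668500 and chr12:114669001-114669500, held 3 insertion preys each. Preys upstream of the bait's start made up 8 of 54 insertion preys and 15.0% of the others in DNA-PKcs-/- replicate 5, 3 of 13 and 7.34% in PQR/PQR replicate 2, and 18.4% and 10.6% in the whole DNA-PKcs-/- pool.

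**Figure D5:**
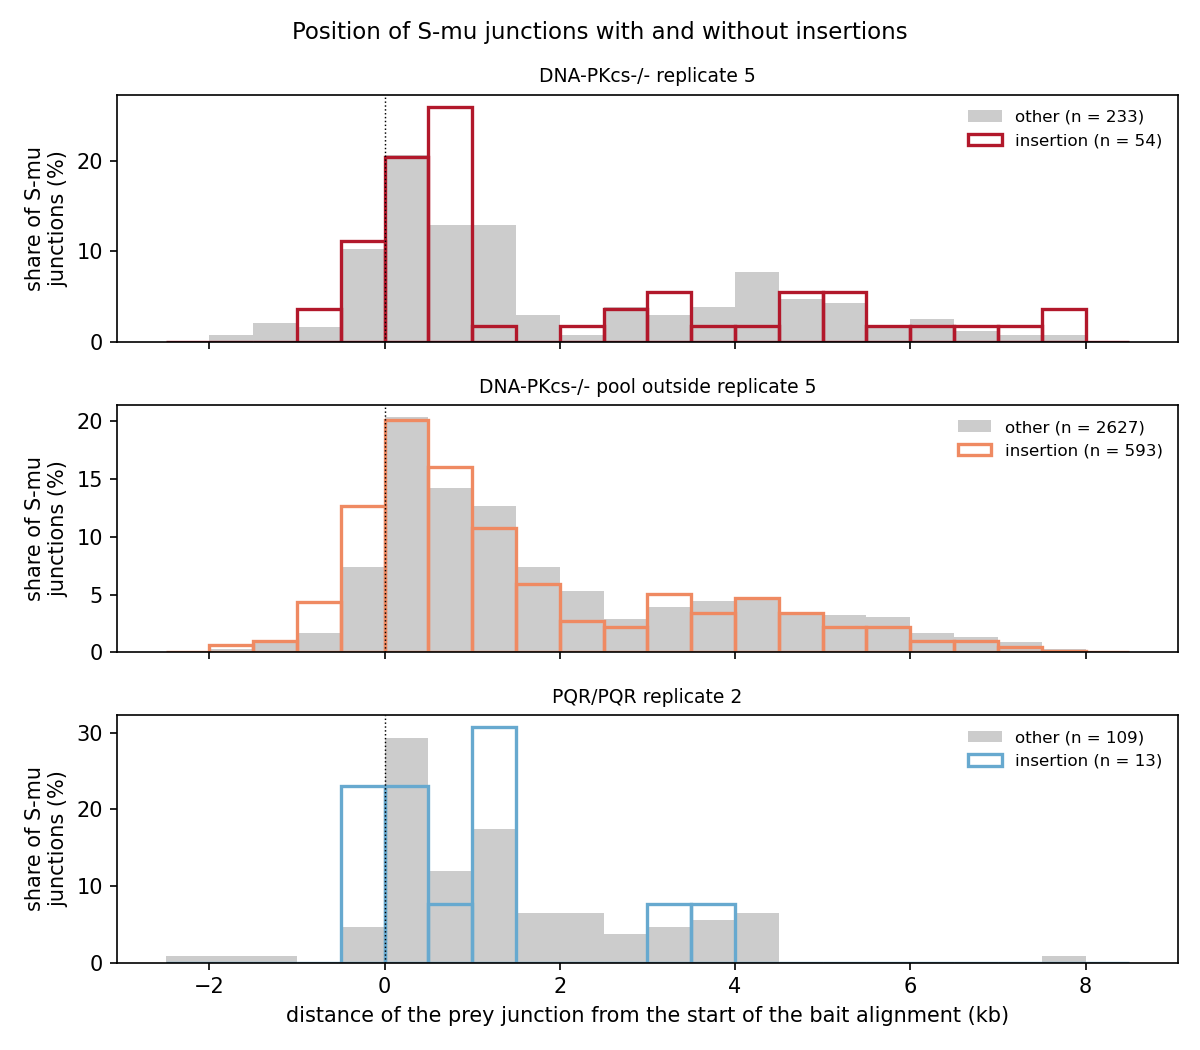
Outlined bars give insertion preys and grey bars other preys in S-mu as a percentage of each class, in steps of 500 bases by distance from the start of the bait alignment (horizontal axis, kb, positive towards the downstream switch regions). In DNA-PKcs-/- replicate 5 the step from 500 to 1000 bases holds 25.9% of insertion preys, and in the pool outside replicate 5 it holds 16.0%. PQR/PQR replicate 1 has no S-mu list here.

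In S-gamma1 and S-epsilon, no difference in position between insertion and other preys passed the test. The share of S-gamma1 insertion preys beyond the median of the others was 52.6% of 19 in DNA-PKcs-/- replicate 5 and 58.8% of 34 and 50% of 8 in PQR/PQR replicates 1 and 2. In S-epsilon it was 57.1% of 7, 54.1% of 111 and 50% of 16, and no adjusted Fisher's exact p was below 0.784 in either region. In PQR/PQR replicate 1 the leading S-epsilon bin, chr12:114514001-114514500, held 28 of 111 insertion preys (25.2%) and 23.2% of 678 others. The same bin led in PQR/PQR replicate 2, with 6 of 16 insertion preys and 22.7% of 128 others. In S-gamma1 the leading bin of PQR/PQR replicate 1 was chr12:114568501-114569000 with 6 of 34, and in DNA-PKcs-/- replicate 5 the bins chr12:114569001-114569500 and chr12:114577501-114578000 held 3 of 19 each.

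On the bait side, the median length of the aligned bait showed no fixed direction between insertion and other junctions. It was longer with insertions in most sets of the libraries, shorter in some, and about equal in the DNA-PKcs-/- pool. The median aligned bait was 65 bases in S-mu insertion junctions and 60 in other S-mu junctions of DNA-PKcs-/- replicate 5, 66 and 60 in S-gamma1, 90 and 55 in S-epsilon with 7 insertion junctions, and 53 and 56 at other IgH sites. In PQR/PQR replicate 1 it was 65 and 60.5 in S-gamma1 and 63 and 59 in S-epsilon. In PQR/PQR replicate 2 it was 49 and 59 in S-mu, 57.5 and 53 in S-gamma1 and 64 and 57 in S-epsilon. The whole DNA-PKcs-/- pool gave 66 and 67 in S-mu (647 and 2861 junctions), 67 and 67 in S-epsilon, and 66 and 66 at other IgH sites. These medians were not tested.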

How the data were processed

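HTGTS junctions of 3 libraries (842, 1681 and 472 junctions) and 2 genotype pools were analysed. The authors deposited whole-number counts of junctions by region, prey strand and length of overlap or insertion, not normalized, and lists of single junctions with reads and alignment bounds. Build mm9 and the aligner Bowtie2 are named per the submitters' processing notes, while its version, the filters and the junction caller were not given in the sources used here. Each region list was checked against its counts, and some lists held a few lines fewer. The S-epsilon list of PQR/PQR replicate 1 held 789 of 794 junctions and 111 of 113 with insertions. The S-mu list of the DNA-PKcs-/- pool held 3508 of 3527 and 647 of 652.

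Insertion length was the gap between bait and prey alignments. Counts gave shares with 95% Wilson intervals (scipy 1.17.1), which cover counting error only and not the spread between libraries. No molecular identifiers were used here to tell copies of the same molecule apart. Two-sided Fisher's exact tests compared insertion with other junctions within each library (26 tests) and DNA-PKcs-/- replicate 5 with each PQR/PQR library (10 tests), with Benjamini-Hochberg adjustment per kind. A difference was called below 0.05 in the same direction in every library with data. Junctions of 1 library share their source, so all tests compare libraries. A simplified form of both call rules, with unadjusted Fisher's exact p and no spread between libraries, was tried on simulated counts. A shift of 20 points in S-mu share between libraries was called in 49% of 200 runs. The same shift in inverted share over all IgH within libraries was called in 61.5%. The simulated starting share was the same in every library. It was higher than the real inverted shares of the other junctions, 21.5%, 9.99% and 19.6%, so the call rate at those shares was not simulated. Differences of that size may therefore be missed, at a rate not known for these data. Alternatives used a single PQR/PQR library, the pools or the lists, or changed insertion length, prey length, orientation or the comparison class. Insertion length and bases carry no test. Insertion share was not tested as such, but the region and orientation comparisons within libraries rest on the same counts. Pool values carry no test except where a pool replaced its libraries as an alternative.

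The members, comparisons and rules were chosen with earlier results of these data known. Positions in S-mu of PQR/PQR replicate 1 are not analysed here. Named items are all regions, the leading 500-base bin where 10 or more insertion junctions were listed, and per library the 3 longest insertions of at most 30 bases and the 3 most frequent of 2 or more bases. The direct join, the single-base example and shared runs were chosen after the reads were seen. No genome was used: matches of inserted bases were sought in the aligned parts of the reads on both strands.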

Additional observations from a re-analysis of the deposited data

Results flagged for a closer look

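The difference in S-mu share between insertion and other junctions pointed one way in DNA-PKcs-/- replicate 5, at 24.4 points, and the other way in both PQR/PQR libraries, at -1.37 and -0.486; the difference between the genotypes was not tested. The PQR/PQR reads outside the libraries gave 4.48 points and the whole PQR/PQR pool 1.34, the sign of DNA-PKcs-/- replicate 5. The inverted share in S-epsilon also pointed opposite ways in the libraries. It differed by 9.98 points in DNA-PKcs-/- replicate 5, from 1 of 7 insertion junctions, against -2.34 and -8.59 in the PQR/PQR libraries. The difference between the genotypes was not tested either. Here the PQR/PQR reads outside the libraries gave -6.25, from 0 of 5 insertion junctions, and the whole PQR/PQR pool -3.34, the sign of the PQR/PQR libraries.

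The sheet of large insertions, which entered no main comparison, held 82 IgH junctions of the DNA-PKcs-/- pool and 4 of the PQR/PQR pool, against 2, 2 and 0 in the single libraries. These numbers are not on one scale, because the pools held 11975 and 3906 counted IgH junctions and the libraries 717, 1559 and 349. The large insertions of the DNA-PKcs-/- pool had 30 to 157 bases, and 44 of them lay in S-gamma1, 26 in S-mu, 0 in S-epsilon and 12 elsewhere in IgH. In 9 of them the prey lay within the first 30 bases of the bait itself.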

How the results depend on the processing

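Of 129 values under 12 other settings for 14 results, 112 kept their direction and their side of the threshold, and 2 results were called. The settings overlap, so the 112 are not separate checks. Counting repeated junctions once removed none of the 95, 145 and 38 listed insertion junctions. That setting, the lists and leaving out PQR/PQR replicate 1 gave the same S-mu share difference between libraries, 32.4 points. With the DNA-PKcs-/- pool, the difference in S-mu share between DNA-PKcs-/- and PQR/PQR insertion junctions fell to 4.81 points and the other-IgH difference within libraries turned to -0.205. With the PQR/PQR pool, the inverted share of S-mu insertion junctions differed by 20.2 points in place of -2.32 and that of all IgH by 25.8 in place of 16.0, the other-IgH share by 15.2 in place of 14.5, all called, and the S-epsilon inverted difference within libraries, -0.319, turned to 3.32. Without 1-base insertions the S-mu share difference between libraries was 28.6 and not called, the S-epsilon inverted difference 0.0309 and the S-gamma1 position difference -4.76 in place of 4.06. Without preys under 50 bases the S-epsilon inverted difference was 3.28 and the S-epsilon position difference -3.03 in place of 3.88, and with deletional junctions alone the latter was -4.85. Without PQR/PQR replicate 1 or 2, the inverted difference between libraries ran from -20.8 to 16.2 points in S-mu and from 7.37 to 24.5 over all IgH, the other-IgH difference from 13.2 to 15.8, and the S-epsilon inverted difference within libraries from 0.691 to 3.82. The cause of these changes was not tested. The 2 called results, in S-mu and S-epsilon share between libraries, stayed called without either PQR/PQR library, at 32.4 to 38.2 and -45.6 to -34.5 points, but the S-epsilon difference was -17.0 in place of -40.0 with the PQR/PQR pool. That pool contains the PQR/PQR libraries. In the reads outside the libraries the S-epsilon share was 4.05% in DNA-PKcs-/- and 1.82% in PQR/PQR, the opposite direction. The other-IgH difference between libraries was 2.77 with the DNA-PKcs-/- pool, and the S-mu position difference -5.10 in place of -15.5 with the furthest quartile. No paired analysis was possible because the DNA-PKcs-/- library has number 5 and the PQR/PQR libraries have numbers 1 and 2. From the lists, results that need S-mu leave out PQR/PQR replicate 1. The 13 S-mu and 8 S-gamma1 insertion junctions of PQR/PQR replicate 2 and the 7 S-epsilon ones of DNA-PKcs-/- replicate 5 limit what could be detected.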
